A study of Mus musculus with 2 samples.

Results

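The genes described here encode the proteins of the cytosolic ribosome, measured in microglia, the resident macrophages of the brain. Membership was set by symbol alone, but the set was chosen with earlier results of these data known. A member starts with Rpl or Rps and a digit, or is Rpsa, Rplp0, Rplp1 or Rplp2, and symbols with -ps or starting with Rps6k were left out. This gave 86 of the 31053 genes listed. Of these, 78 carry the plain symbols of ribosomal proteins, including the retrogene Rps27rt. The other 8 are relatives, made up of 7 paralogues whose symbol ends in l or in l and a digit (Rpl3l, Rpl7l1, Rpl10l, Rpl22l1, Rpl36al, Rpl39l and Rps27l) and Rps19bp1, which encodes a protein that binds Rps19 and is not part of the ribosome.

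Both groups were microglia sorted from the hypothalamus of young wild-type mice, 20 hours after dye-labelled plasma protein was injected, and several mice were pooled. In the plasma-positive group the sorted cells carried the dye, and in the plasma-negative group they did not. Each group was 1 droplet library, in which every captured RNA molecule is tagged with a unique molecular identifier (UMI) and counted near its 3' end. The difference between the groups therefore has no replicate check, and the sort, the library preparation and the sequencing depth cannot be told apart as its source. All intervals below are at 95% and cover counting error only.

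A ribosome joins a small subunit, which reads the mRNA, to a large subunit, which forms the peptide bond, and a stalk of acidic proteins on the large subunit recruits the elongation factors. Most of the proteins are present in 1 copy per ribosome. Their mRNAs are short, abundant and stable, and in mammals they begin with a run of pyrimidines, the 5' terminal oligopyrimidine tract, through which mTOR complex 1 and its effector Larp1 adjust their translation. Microglia make and turn over large amounts of membrane and lysosomal protein, and the amount of ribosomal protein mRNA is widely used as a sign of a cell's capacity to make protein.

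After filtering, the plasma-negative library held 9860 cells and 34534518 UMIs, with a median of 3270.5 UMIs per cell. The plasma-positive library held 10362 cells and 41984977 UMIs, with a median of 3753 UMIs per cell. All 11 microglia markers were detected, each in at least 64.4% of the plasma-negative cells and 68.0% of the plasma-positive cells. Among markers of the other 12 cell types, Cd79b, of the B cell list, was the most frequent, in 14.3% and 16.4% of cells. Of the 4 markers on that list, 2 were at 0 in the plasma-negative and 3 in the plasma-positive library. All 4 neutrophil markers were at 0 in both libraries. The summed level of the 6 border macrophage markers was 3.33 CPM in the plasma-negative library, with 3 of them at 0, and 5.76 CPM in the plasma-positive library, with 1 at 0, where CPM is counts per 1000000 UMIs of the library. Its part in the results below was not tested.

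Transcripts of the 86 genes made up 9.04% of plasma-negative and 10.1% of plasma-positive UMIs, a ratio of 1.116 (1.114 to 1.118, exact conditional binomial interval). A UMI stands for 1 molecule whatever the length of its transcript, so levels of different genes are compared here as CPM without a length correction. The ease with which each 3' end is captured still differs between genes. Of the 86 genes, 83 reached 10 CPM in at least 1 library, and the 3 that did not were Rpl39l, Rpl3l and Rpl10l. None of the 83 passed this minimum in 1 library alone.

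Levels spread widely although most of the proteins are needed in equal numbers. Rps29 (ENSMUSG00000034892, chromosome 12, 69157722 to 69159186, minus strand, GRCm38), a small zinc-binding protein of the small subunit, was the most abundant, at 4976 CPM in the plasma-negative and 5611 CPM in the plasma-positive library. Rplp1 (ENSMUSG00000007892, chromosome 9, 61913284 to 61914542, minus strand), a stalk protein, followed at 3179 and 3423 CPM. Both stood apart from the remaining members, which began with Rps24, a small subunit protein, at 2055 and 2305 CPM. Rps21, also of the small subunit, was at 2047 and 2248 CPM. Of the large subunit, the zinc-binding Rpl37 was at 1985 and 2201 CPM and Rpl37a at 1812 and 2035 CPM. Rpl39, which lines the exit tunnel, was at 1853 and 2109 CPM, and Rpl35a at 1856 and 2075 CPM. All 8 were at a higher level in the plasma-positive library. Rpl39 and Rpl35a changed places in this order between the libraries, and in the plasma-negative library their counting intervals overlapped, as did those of Rps24 and Rps21.

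The median over the 78 genes was 1097 CPM in the plasma-negative and 1221 CPM in the plasma-positive library, and 42 and 47 of them reached 1000 CPM. At the low end, Rpl4, a large subunit protein that lines the exit tunnel, was at 268 and 303 CPM. Rpl13a, which also serves in a complex that silences the translation of inflammatory mRNAs, was at 166 and 175 CPM. Rps27rt, an intronless copy of Rps27, was at 43.6 and 47.4 CPM, and its reads can be mistaken for those of Rps27, at 1527 and 1650.3 CPM. Ribosomal protein genes have many processed pseudogenes of nearly the same sequence, and the treatment of shared reads is not given in the sources used here, so that the level of any member is uncertain to that extent. The order of levels was nearly the same in both libraries, with Pearson's r of 0.999 for log2 CPM over the 78 genes, which share the libraries and are not independent replicates.

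**Figure D1:**
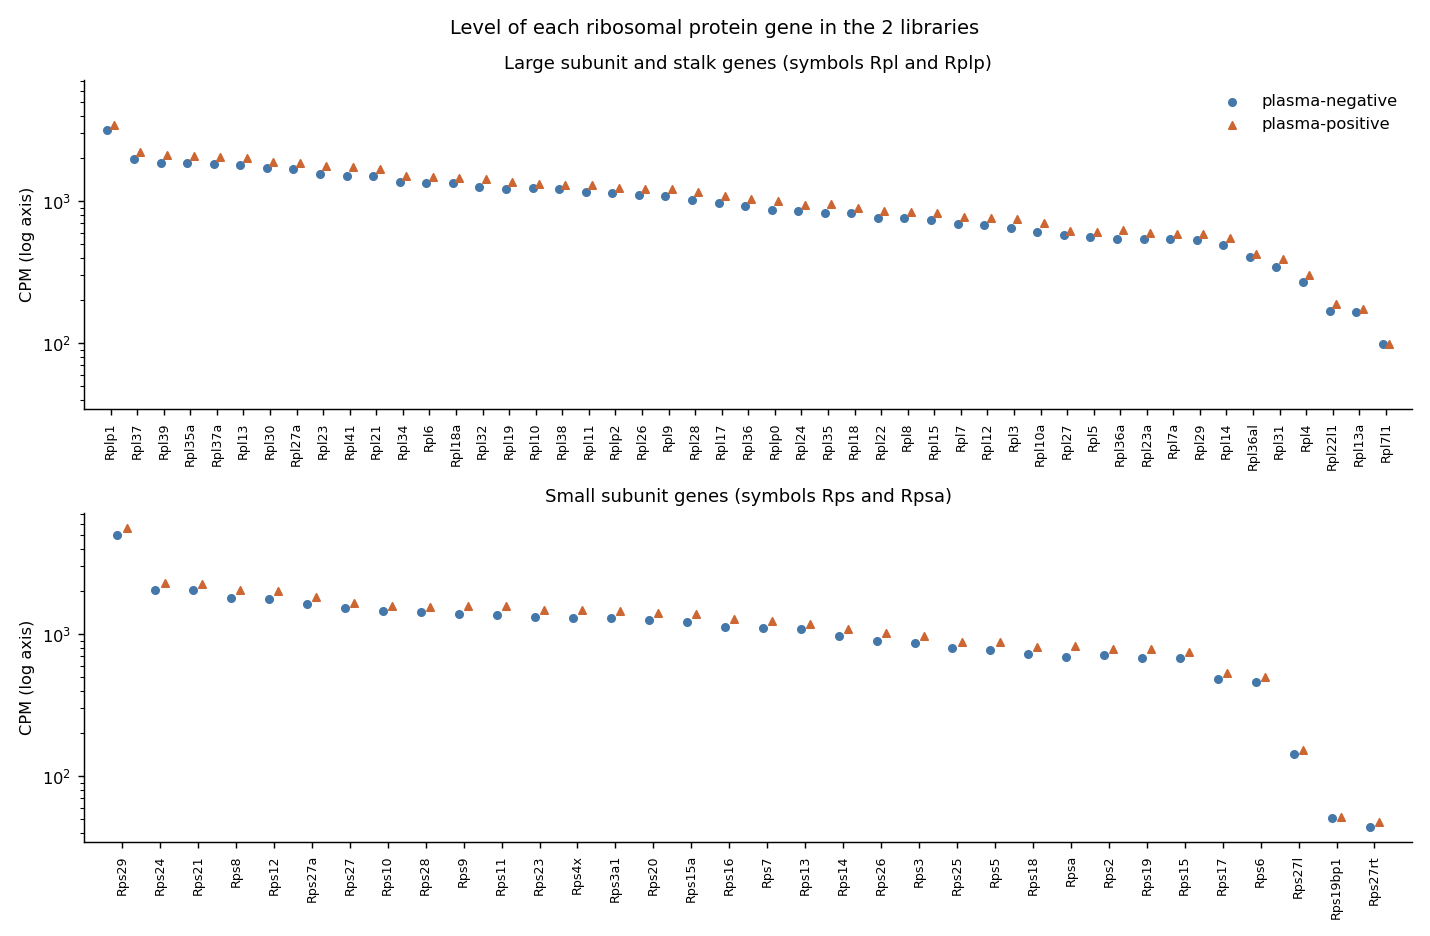
Level of each ribosomal protein gene at 10 CPM or more, in CPM on a log axis, in the plasma-negative (circles) and plasma-positive (triangles) library. Large subunit and stalk genes are above and small subunit genes below, ordered by mean level. Rps29 and Rplp1 lead their panels, and the triangle lies above the circle for every gene, by very little for Rpl7l1 and Rps19bp1.

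The RefSeq promoter windows (GRCm38.p6, 250 bases before to 50 bases after the annotated start) covered 66 of the 86 genes. They are shown because the ratios of the members, given below them, lay close together and most members share a feature at the start. Each line gives 20 bases on either side of the annotated start, 5′ to 3′ on the strand of the gene. Capitals mark the longest run of C and T that starts with C and has at least 6 bases. Its first base lies within 25 bases of the annotated start. Likeness to the pyrimidine tract was not measured. The windows were picked to show genes with and without the run, each at high and low ratios, with both known, so the choice itself shows no link between them. The first 6 genes are ribosomal proteins with the run, and Rplp0 and Rpl27 are ribosomal proteins without it. The last 4 are relatives with low ratios, of which Rps27l holds a run that starts before the first base shown.
Rpl35, chr2:39005112-39005151, minus strand: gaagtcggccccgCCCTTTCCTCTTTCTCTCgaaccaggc
Rps18, chr17:33955646-33955685, minus strand: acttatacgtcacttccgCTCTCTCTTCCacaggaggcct
Rps24, chr14:24490658-24490697, plus strand: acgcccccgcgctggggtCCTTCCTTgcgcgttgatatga
Rps6, chr4:86857348-86857387, minus strand: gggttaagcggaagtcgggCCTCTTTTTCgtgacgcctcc
Rpl38, chr11:114668560-114668599, plus strand: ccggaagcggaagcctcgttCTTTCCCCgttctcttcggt
Rpl13a, chr7:45128726-45128765, minus strand: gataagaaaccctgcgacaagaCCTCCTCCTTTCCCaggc
Rplp0, chr5:115559447-115559486, plus strand: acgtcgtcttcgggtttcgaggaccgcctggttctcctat
Rpl27, chr11:101442225-101442264, plus strand: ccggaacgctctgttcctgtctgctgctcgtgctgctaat
Rps27l, chr9:66946066-66946105, plus strand: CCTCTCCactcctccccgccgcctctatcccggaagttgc
Rpl36al, chr12:69184048-69184087, minus strand: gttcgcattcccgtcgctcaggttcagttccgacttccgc
Rpl7l1, chr17:46782637-46782676, minus strand: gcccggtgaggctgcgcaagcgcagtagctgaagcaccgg
Rps19bp1, chr15:80264287-80264326, minus strand: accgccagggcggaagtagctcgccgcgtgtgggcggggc

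A run of this kind with its first base within 25 bases of the annotated start was found in 44 of the 58 ribosomal protein genes with a window (75.9%) and in 3 of the 8 relatives (37.5%). The share was 40.7% of all 19407 genes with a window and 44.3% of the 531 other genes at 200 CPM or more. On the opposite strand the run was found in 19 of the 58 genes (32.8%), against 45.2% of all genes. The sequence CCGGAAG, searched on both strands of the whole window, was present in 24 of the 58 (41.4%) and in 12.1% of all genes. TATAAA, also on both strands, was present in 6 of the 58 (10.3%) and in 14.7% of all genes. The annotated start need not be the one used in microglia, and a match is a match of letters only. The 44 genes with the run had a median log2 ratio of 0.16, plasma-positive over plasma-negative, and the 14 without it also had 0.16.

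In the comparison of the 2 sorts, every one of the 83 ribosomal protein genes and relatives at 10 CPM or more had a ratio above 1, where 35.7% of the 8355 genes at that level did. At least 1.1-fold higher levels in the plasma-positive library were found for 60 of the 83, against 6.82% of all genes, and 0 were at least 1.1-fold lower, against 16.5%. No member reached 1.5-fold in either direction, against 0.323% of all genes higher and 0.0239% lower. With 1 library per group these are rules of size, not tests. The median log2 ratio of the 83 genes was 0.16, and that of all 8355 genes was -0.04. Level bears on this background, because 18.5% of the 763 genes at 200 CPM or more were at least 1.1-fold higher. Of the 686 of those that are not members, 82 were (11.95%), with a median of -0.02, and of the 77 members 59 were. A ratio above 1 was found for 50.3% of the 763 genes and for all 77 members among them, and a level at least 1.1-fold lower for 8.39% and for 0 members. The share of all genes past 1.1-fold also moved with the scaling: 11.5% were higher and 9.39% lower with TMM scaling, which sets the bulk of genes equal, and 8.77% and 13.3% when member UMIs were left out of the total. The members' count was then 77 and 70. It was lower where cells were matched between the libraries: 37 of 83 with equal weight for 10 sets of cells by mitochondrial share, against 6.69% of all genes. With equal weight for 10 sets by nuclear RNA share, described below, it was 0, against 6.98% of all genes, and the median log2 ratio was 0.04.

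The shift was narrow and common to both subunits. Among the 78 ribosomal protein genes the log2 ratios ran from 0.07 to 0.24 with a standard deviation of 0.031, where counting error alone came to 0.012. The median was 0.16 for the 43 large subunit genes, of which 34 were at least 1.1-fold higher, and 0.17 for the 32 small subunit genes, of which 24 were. The genes lie on 19 chromosomes. The 4 on the X chromosome, Rpl10, Rpl36a, Rpl39 and Rps4x, had log2 ratios of 0.10, 0.19, 0.19 and 0.18, inside the range of the others.

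Rpsa (ENSMUSG00000032518, chromosome 9, 120127689 to 120132369, plus strand), which also acts as a laminin receptor, had the highest log2 ratio among members at 50 CPM or more. It was at 696 CPM in the plasma-negative and 819 CPM in the plasma-positive library, a log2 ratio of 0.24 (0.21 to 0.26). Rpl3, which helps shape the peptidyl transferase centre, was at 644 and 748 CPM, a log2 ratio of 0.22. Rps19, the gene most often mutated in Diamond-Blackfan anaemia, was at 677 and 783 CPM, a log2 ratio of 0.21. These 3 lay above most members by more than their counting error. Rplp0, the base of the stalk, was at 873 and 1009 CPM (0.21), and Rpl35 was at 832 and 960.4 CPM (0.21). None of the 5 was among the 8 most abundant members.

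The stalk was uneven. Rplp1, which binds Rplp0 as a dimer with Rplp2, had a log2 ratio of 0.11 (0.10 to 0.12), and Rplp2, at 1142 and 1243 CPM, had 0.12 (0.10 to 0.14). Both lay below Rplp0, whose interval was 0.19 to 0.23. Rpl13a had the lowest log2 ratio of the 78 genes, 0.07 (0.02 to 0.12), followed by Rpl27, at 579 and 614 CPM, with 0.09, and Rpl10, which joins the large subunit late in its assembly, at 1234.5 and 1325 CPM, with 0.10. In all, 19 of the 78 were under 1.1-fold. Among them was Rps6, the target of the S6 kinases, at 459 and 498 CPM with a log2 ratio of 0.12.

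The relatives were mostly nearer to no difference. Rpl7l1 (ENSMUSG00000063888), a relative of Rpl7 known from large subunit assembly, was at 98.4 and 99.3 CPM, a log2 ratio of 0.01 (-0.05 to 0.08), whereas Rpl7 was at 695 and 770.3 CPM (0.15). Rps19bp1 was at 51.0 and 51.7 CPM (0.02, -0.07 to 0.11). Rpl36al (ENSMUSG00000049751) was at 405 and 421 CPM (0.06) and Rpl36a at 546 and 622 CPM (0.19), so that Rpl36al made up 42.6% (42.1% to 43.1%, exact binomial) of the UMIs of the pair in the plasma-negative and 40.4% (39.9% to 40.9%) in the plasma-positive library. Rps27l, a known p53 target, was at 144 and 152 CPM (0.07), 8.63% and 8.42% of the UMIs it shares with Rps27. Rpl22l1, which can replace Rpl22 in the ribosome, was the 1 of the 5 relatives at 10 CPM or more that was at least 1.1-fold higher. It was at 168 and 189 CPM (0.17), beside 755 and 846 CPM (0.16) for Rpl22, and its share of the pair was 18.2% and 18.3%.

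The paralogues known from other tissues were scarce. Rpl39l, known from the testis, had 125 plasma-negative and 204 plasma-positive UMIs, or 3.62 and 4.86 CPM. Its log2 ratio was 0.42 (0.10 to 0.76), above that of every member at 10 CPM or more, but with an interval that reaches into their range. Its UMIs were 0.195% and 0.230% of the pair with Rpl39. Rpl3l, known from heart and skeletal muscle, had 1 UMI and 0 UMIs. Rpl10l, known from the testis, had 0 in both, which allows up to 0.0869 CPM in the plasma-negative and 0.0715 CPM in the plasma-positive library, taking 3 counts as the limit.

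Counts for other genes of the translation apparatus are to be read beside the 6.82% of all genes at 10 CPM or more that were at least 1.1-fold higher and the 16.5% that were lower. Differences between the lists were not tested. Fau and Rack1, ribosome components that the symbol rule misses, had ratios inside the range of the members. Fau, a ubiquitin-like fusion that gives a small subunit protein, was at 2876 and 3234 CPM (log2 ratio 0.17). Rack1, a scaffold on the small subunit, was at 430.1 and 493 CPM (0.20). Of 21 other mRNAs known for an oligopyrimidine tract, Fau and Rack1 included, 9 were at least 1.1-fold higher (42.9%, against 6.82% of all genes) and 0 lower, with a median of 0.11. Tpt1, a translationally controlled growth protein, was at 2128 and 2357 CPM (0.15), and the elongation factor Eef1a1 was at 2094 and 2382 CPM (0.19).

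The 10 genes listed as elongation factors include the Eef2 kinase Eef2k and the termination factors Gspt1 and Etf1, none of them past 1.1-fold. Of the 10, 3 were at least 1.1-fold higher (Eef1a1, Eef1b2 and Eef2), against 6.82% of all genes. The mitochondrial factor Tsfm (-0.16) was the 1 at least 1.1-fold lower, against 16.5% of all genes. Of 30 initiation factors, 3 were higher (Eif3h, Eif3k and Eif3f) and 2 lower (Eif3a, -0.26, and Eif5b, -0.15), a share higher near the 6.82% of all genes and a share lower under the 16.5%. All 3 that were higher are among the 7 initiation factors on the oligopyrimidine list, whose median was 0.09. The median of the other 23 was 0.02, with 0 higher. The lists were chosen with earlier results of these data known, so this split is no independent support for a link with the tract. Of 31 ribosome assembly factors and RNA polymerase I genes at 10 CPM, 0 were higher and 3 lower (Nob1, Rrn3 and Polr1a), a share lower under the 16.5% of all genes, with a median of -0.02. The most abundant were the nucleolar proteins Ncl, at 351 and 337 CPM, and Npm1, at 350.3 and 373 CPM (0.09), which is also on the oligopyrimidine list. Of 11 genes of mTOR complex 1 and its translation effectors, 0 were higher and 2 lower (Eif4ebp1 and Rps6kb2, both -0.17), a share lower near the 16.5% of all genes, with a median of -0.04. Larp1 was at 92.3 and 91.7 CPM. The 77 proteins of the mitochondrial ribosome, a separate machine, had a median of 0.00, with 5 higher (6.49%, near the 6.82% of all genes) and 6 lower, under the 16.5%.

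**Figure D2:**
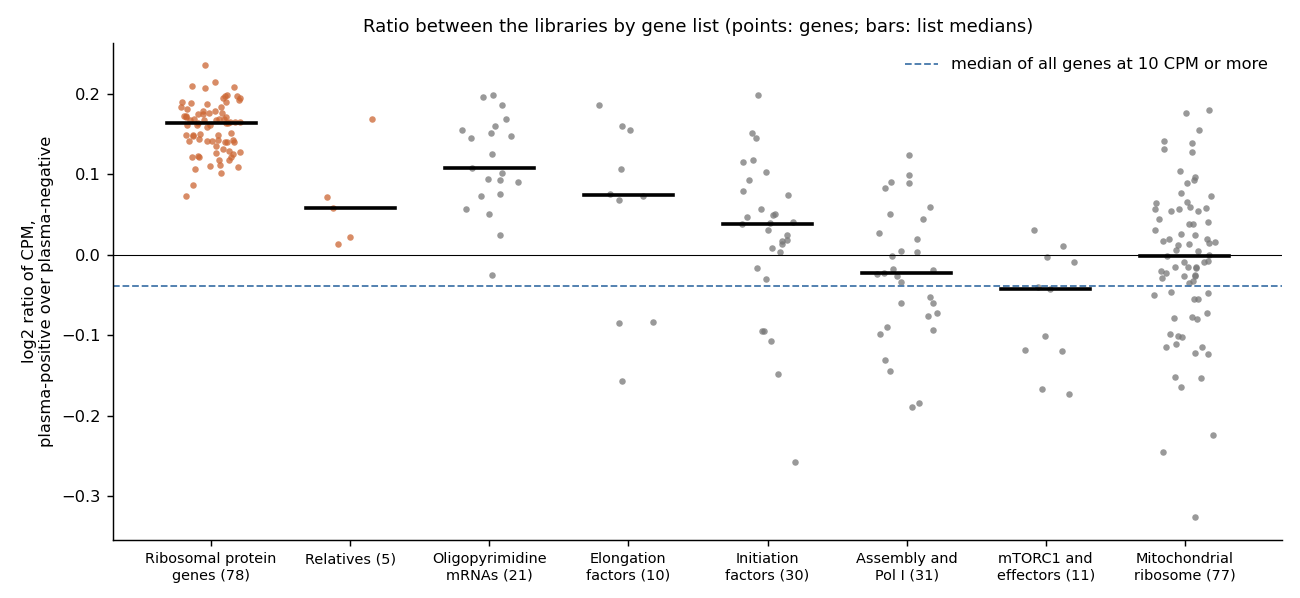
Log2 ratio of CPM, plasma-positive over plasma-negative, for each gene at 10 CPM or more, by list. Each point is 1 gene, black bars are list medians, the number of genes is in brackets and the dashed line is the median of all genes at 10 CPM or more (-0.04). The oligopyrimidine list shares genes with the elongation and initiation lists, and the elongation list includes Eef2k, Gspt1 and Etf1, which are not elongation factors. The 78 ribosomal protein genes lie between 0.07 and 0.24. The medians of the assembly, mTOR and mitochondrial ribosome genes are -0.02, -0.04 and -0.001, and 2 of the 11 mTOR genes lie above 0.

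Among abundant genes the ratio was lower where the annotated transcripts were longer. The length of a gene here is the median over all its protein-coding transcripts in GENCODE M21. It need not be the length of the mRNA present in these cells, so a gene can fall in the wrong class. Of the 78 ribosomal protein genes 76 reached 200 CPM, with a median length of 713 bases and a range from 367.5 to 3706. Among other genes at 200 CPM or more, the median log2 ratio was 0.10 for 80 genes with transcripts under 700 bases, of which 33.8% were at least 1.1-fold higher. It was 0.03 for 212 genes of 700 to 1500 bases (14.6%), -0.05 for 214 genes of 1500 to 3000 bases (3.74%) and -0.06 for 164 genes of 3000 bases or more (3.05%). The median of the 76 ribosomal protein genes, 0.16, lay above the upper quartile of the other genes under 700 bases by this measure, 0.15. The part of transcript length in the ribosomal protein ratios was not tested.

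**Figure D3:**
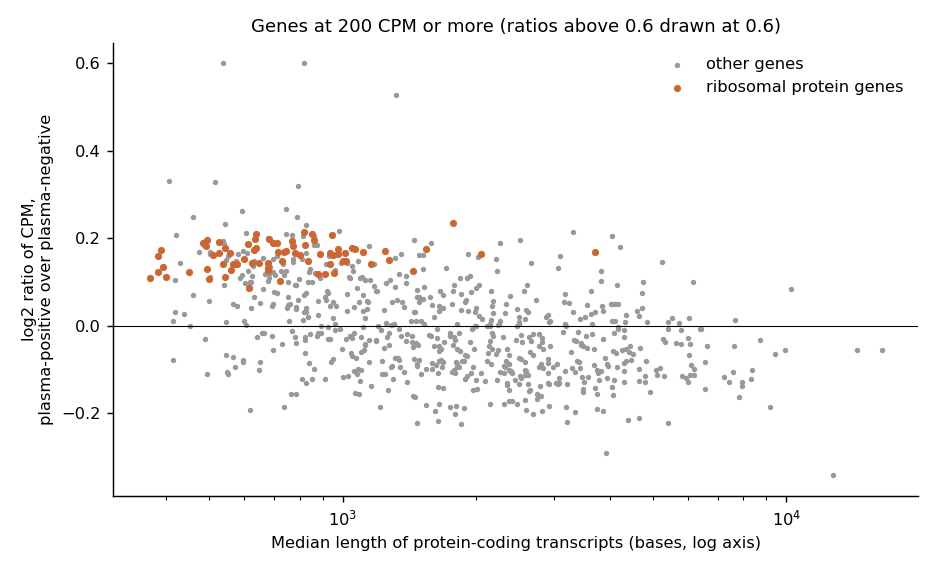
Log2 ratio of CPM, plasma-positive over plasma-negative, against the median length of a gene's protein-coding transcripts in bases (log axis), for genes at 200 CPM or more. Orange points are ribosomal protein genes and grey points other genes; 2 grey genes above 0.6, Apoe and Ccl12, are drawn at 0.6. Grey points go from a median of 0.10 under 700 bases to -0.06 at 3000 bases or more, and the orange points stay in a band from 0.09 to 0.24.

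Cell by cell, the median share of UMIs on the 86 genes was 8.67% (quartiles 6.82% and 10.7%) in the plasma-negative and 9.47% (7.58% and 11.7%) in the plasma-positive library, and a median of 73 and 75 of the 86 genes had a UMI. Each cell was then thinned at random to 1000 UMIs, which left out 796 plasma-negative and 603 plasma-positive cells that were shallower. The medians were then 8.90% and 9.70%, and a median of 49 and 51 genes had a UMI. Of the thinned plasma-positive cells, 60.1% lay above the plasma-negative median. The distance was greater in the upper part of the distribution: after thinning the 95% points were 14.9% and 17.1%.

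The distribution had a separate lower mode. The limit between the modes, a share of 3.5%, was set after the distribution was seen. At full depth 1183 plasma-negative cells lay under it, 11.998% of the library (11.4% to 12.7%, exact binomial), as did 952 plasma-positive cells, 9.19% (8.64% to 9.76%). Only 430 and 405 of these cells were deep enough to be thinned, so the mode is smaller among thinned cells than at full depth. In all cells under the limit, ribosomal protein genes held 1.71% and 1.72% of UMIs, values that the limit largely fixes, against 9.30% and 10.3% in the other cells. The cells of the lower mode were shallow, with medians of 879 and 923.5 UMIs, and nuclear long non-coding RNAs such as Malat1 made up 15.9% and 14.8% of their UMIs, against 6.28% and 5.21% in the other cells. Mitochondrially encoded genes made up 2.64% and 3.13%, against 1.15% and 1.38%, and a median of 7 and 8 of the 11 microglia markers had a UMI. Without these cells the ratio of the summed share was 1.108 and 49 of the 83 genes were at least 1.1-fold higher, against 6.71% of all genes; their part in the spread between cells was not tested.

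Cells of 1 library differed far more than the libraries did. The standard deviation between thinned plasma-negative cells was 3.48 percentage points, 3.81 times that expected from drawing 1000 UMIs, and in plasma-positive cells it was 3.995 points, 4.18 times. Genes starting with Rpl and genes starting with Rps varied together: Pearson's r between their summed UMIs was 0.850 over 9064 thinned plasma-negative and 0.872 over 9759 plasma-positive cells, which share a library and a depth of 1000 UMIs.

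**Figure D4:**
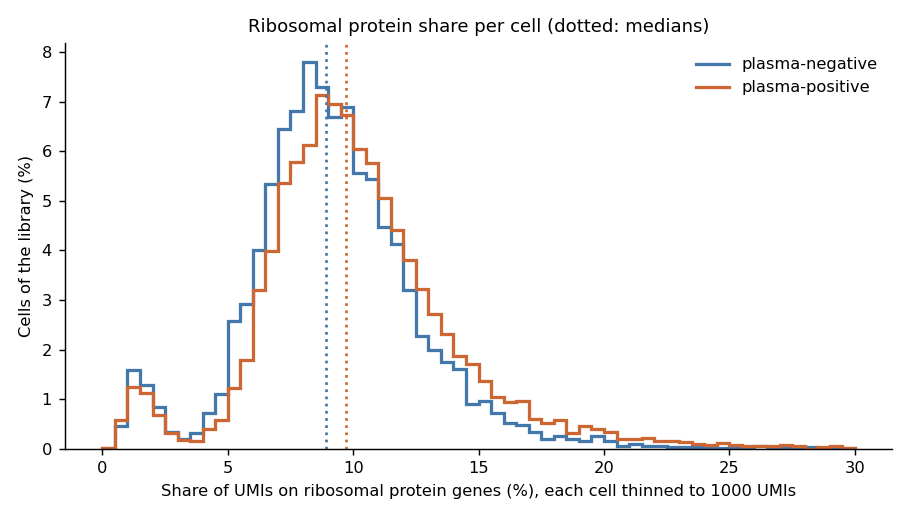
Share of UMIs on ribosomal protein genes (%) per cell after thinning to 1000 UMIs, against the percentage of the library's cells, with medians dotted (8.90% plasma-negative, 9.70% plasma-positive). Both curves have a lower mode under 3.5%, and a main mode in which the plasma-positive curve lies further right; 6 plasma-negative and 13 plasma-positive cells above 30% are not drawn.

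The share differed with the nuclear RNA content of the cells. Malat1, a long non-coding RNA kept in the nucleus, was at 65694 CPM in the plasma-negative and 54074 CPM in the plasma-positive library, a log2 ratio of -0.28, and Neat1 and Kcnq1ot1 were also lower (-0.24 and -0.17). Together with Meg3 these nuclear RNAs made up 6.61% and 5.44% of UMIs. All cells were ranked by this share and divided into 10 sets of equal size, and the ribosomal protein share was taken over the remaining UMIs. From the set with the least nuclear RNA to the set with the most, it went from 13.1% down to 4.04% in the plasma-negative library and from 13.8% down to 3.21% in the plasma-positive one. The set with the least held 662 plasma-negative and 1361 plasma-positive cells.

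Within these sets the difference between the libraries was much smaller than over all cells. The totals differ, however: the ratio of each set leaves nuclear RNAs out, whereas the 1.116 over all cells was taken over all UMIs. Leaving Malat1 out of the total also lowered the ratio over all cells, as given further below. The ratio lay between 1.019 and 1.055 in 8 of the 10 sets, and was 0.964 (0.959 to 0.970) and 0.795 (0.783 to 0.807) in the 2 sets with the most nuclear RNA. With the 10 sets weighted equally and shares taken over all UMIs, the ratio of the summed share was 1.025 and the median log2 ratio of the 83 genes was 0.04. Then 69 of the 83 had a ratio above 1, and 0 were at least 1.1-fold higher or lower, against 6.98% and 9.13% of all genes under that weighting. Rpsa was at 0.10 and Rpl3 at 0.08, still the highest of those named, and Rpl27, at -0.05, and Rpl13a, at -0.03, were below 0. The part of the nuclear RNA share in the difference between the sorts was not tested.

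Cells were also divided in the same way by depth and by mitochondrial share. In 10 sets by UMIs per cell the ratio lay between 1.079 and 1.162, above 1 in all 10. The shallowest set, from 501 to 1416 UMIs, stood apart with a ribosomal protein share of 2.24% in plasma-negative and 2.50% in plasma-positive cells, and nuclear RNAs made up 15.9% and 14.6% of its UMIs. In the second set the ribosomal protein share was already 10.2% and 11.05%. Mitochondrially encoded genes, 13 of 13 of which were at least 1.1-fold higher, against 6.82% of all genes at 10 CPM or more, made up 1.20% and 1.42% of UMIs. In 10 sets by mitochondrial share the ratio lay between 1.056 and 1.251, and it was highest in the set with the most mitochondrial RNA. The order of the 78 genes held between cells of different depth: their log2 ratios in the shallower and the deeper cells, divided at 3497 UMIs, had Pearson's r of 0.761 and Spearman's rho of 0.757 over genes that share the libraries.

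**Figure D5:**
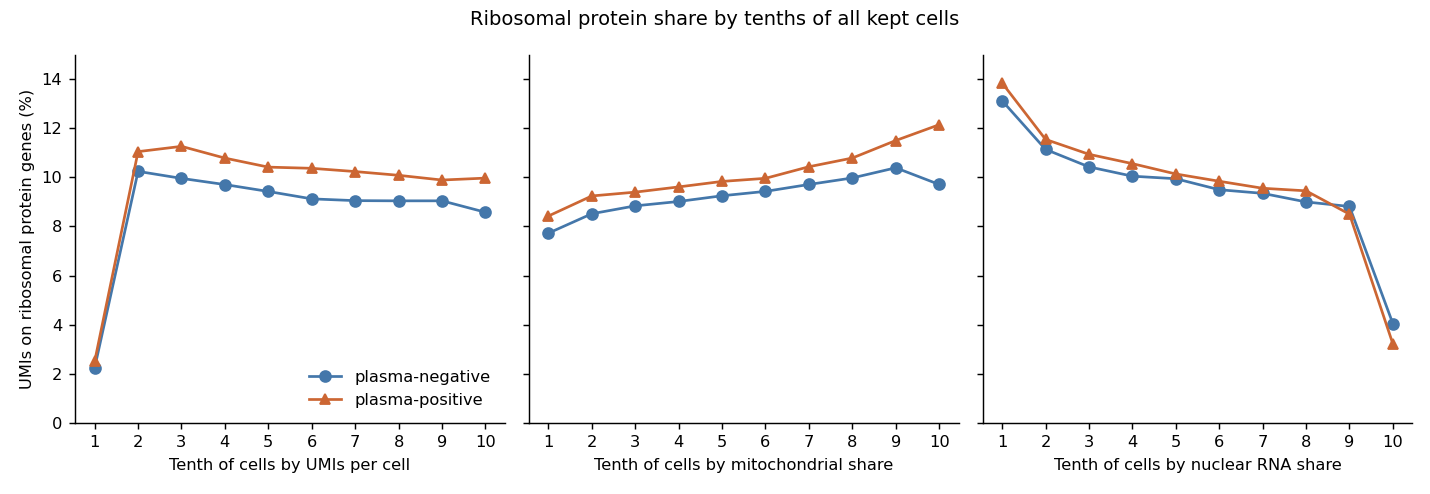
Ribosomal protein share of UMIs (%) in 10 sets of cells of equal size, ranked over both libraries by UMIs per cell (left), mitochondrial share (middle, mitochondrial UMIs left out of the total) and nuclear RNA share (right, nuclear RNAs left out of the total). Circles are plasma-negative and triangles plasma-positive cells. The lines run apart on the left and in the middle, and lie close together and cross between the eighth and ninth set on the right.

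Cells with much Apoe, the lipid carrier gene with the highest ratio among genes at 200 CPM or more (171 and 1190 CPM, log2 ratio 2.80), were rich in ribosomal protein transcripts. After thinning, 164 of the 9064 cells of the plasma-negative library held at least 3 Apoe UMIs, as did 634 of the 9759 cells of the plasma-positive library, and 122 and 237 cells held 1 UMI fewer. Their ribosomal protein share was 12.05% (11.9% to 12.2%, exact Poisson) and 14.96% (14.9% to 15.1%), against 9.05% and 9.68% in cells with no Apoe UMI. Within the plasma-positive library all 78 ribosomal protein genes were higher in the cells with Apoe, by a median of 0.72 on the log2 scale, relative to all UMIs of other genes, from 0.47 for Rpl4 to 0.99 for Rpl10a. Within the plasma-negative library 77 of the 78 were, by a median of 0.46, from -0.41 for Rpl13a, the 1 that was lower, to 1.59 for Rps27rt. These 2 are the scarcest of the 78 genes, and the 164 cells held 164000 UMIs after thinning. Both values therefore rest on few counts and are given without an interval. In these cells nuclear RNAs made up 6.39% and 5.27% of the UMIs of other genes, against 7.51% and 6.37% in cells with no Apoe UMI. The mitochondrial share of the cells with Apoe was higher, at 1.69% and 1.95% against 1.18% and 1.37%. Their median depth before thinning was greater, at 3618 and 4291 UMIs against 3369 and 3828. The part of these differences in the ribosomal protein share was not tested.

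Outside the cells with Apoe the difference between the sorts was smaller. The ratio of ribosomal protein share was 1.103 over all thinned cells, 1.073 (1.070 to 1.076) over cells with fewer than 3 Apoe UMIs and 1.068 (1.064 to 1.072) over cells with no UMI of Apoe or of the interferon-induced or mitotic lists. Cells with at least 3 UMIs of 15 interferon-induced genes, 126 plasma-negative and 496 plasma-positive, had shares of 10.8% and 12.2%. Cells with at least 2 UMIs of 10 mitotic genes, 17 and 44 in number, had 9.12% (8.67% to 9.58%) and 8.88% (8.61% to 9.16%), beside 9.19% and 10.1% over all thinned cells. All these sets are ranges of a count and not cell types.

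To name the genes most like the ribosomal protein genes in pattern, thinned cells were ranked by ribosomal protein share. Each gene's level among all other UMIs was compared between the cells of highest and of lowest share, 2266 at either end in the plasma-negative and 2439 in the plasma-positive library. The upper and lower ends held 13.5% and 5.25% ribosomal protein UMIs in the plasma-negative and 15.2% and 5.82% in the plasma-positive library. The lower end reached up to shares of 7.2% and 7.8%, and so took in the lower mode described above. Of that mode 430 plasma-negative and 405 plasma-positive cells remained after thinning, and its part in the differences below was not tested. Apoe was first, with log2 differences of 2.43 in plasma-negative and 4.26 in plasma-positive cells, followed by the lysozyme gene Lyz2 (1.65 and 1.92). Also near the upper end were Fau (1.45 and 1.52), Cd52 (1.43 and 1.54), Gm10076 (1.499 and 1.42), the respiratory chain gene Uqcrh (1.39 and 1.53) and Tpt1 (1.31 and 1.31). At the other end were the nuclear RNA Kcnq1ot1 (-1.40 and -1.16), AY036118 (-1.16 and -1.15), Gm37494, Nfat5, Fchsd2, Zfp638, Pnisr and Dst (-0.96 and -0.98). All 18 genes of the oligopyrimidine list at 100 CPM in both libraries were higher at the upper end in both, with medians of 0.95 and 1.09, where 45.1% and 43.1% of the 1587 other genes at that level were. Mitochondrially encoded genes were also higher there, 11 of 11 in the plasma-negative and 10 of 11 in the plasma-positive library (medians 0.40 and 0.27), as were 5 of 5 mitochondrial ribosomal protein genes in both (0.67 and 0.46). Nuclear RNAs made up 5.93% of the UMIs of other genes at the upper and 9.45% at the lower end of plasma-negative cells, and 4.84% and 8.19% in plasma-positive cells. The median mitochondrial share was 1.29% and 0.909% in plasma-negative cells and 1.496% and 1.15% in plasma-positive cells, and the part of these differences was not tested. Median depth before thinning was 3126 UMIs at the upper and 3421 at the lower end of plasma-negative cells, and 3657 and 3881 in plasma-positive cells.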

How the data were processed

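Single-cell RNA from 2 libraries was analysed, 1 per group. The deposited values are raw UMI counts per gene and cell. Per the file headers they were written by Cell Ranger 6.1.2, while the submitters' processing notes name Cell Ranger 3.0.1. The genome build, annotation, use of strand and treatment of shared reads are not given in the sources used here. Cell barcodes were not used here, so barcodes shared between the libraries were not counted.

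Cells were kept with at least 500 UMIs, 300 genes and at most 10% mitochondrial UMIs. This left out 18 plasma-negative cells (1 under the gene minimum and 17 over the mitochondrial limit) and 28 plasma-positive cells. No doublets were removed, and an alternative leaves out the deepest 7.91% and 8.32% of cells. Counts were summed per library, divided by its total and given as CPM. Genes were compared at 10 CPM or more in at least 1 library, with no pseudocount, by rules of size at 1.1-fold and 1.5-fold. No test was run, since cells are not replicates. Ratios carry exact conditional binomial, levels exact Poisson and shares exact Clopper-Pearson intervals. The scripts were tested on simulated data. Coordinates and transcript lengths come from GENCODE M21 (GRCm38), which need not be the authors' build, and promoter sequences from RefSeq.

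Named were the 8 most abundant members, the 5 highest and 8 lowest ratios at 50 CPM or more, the stalk, and all paralogues and relatives. Of each other list at most 4 genes were given with levels, and of the 8 genes at either end in the comparison of cells with the highest and the lowest share, all but 1, which is not reported here, were named. Rps6, Rpl4, Rpl10a, Rps18, Rpl38 and list genes past 1.1-fold fall outside this rule and were picked with their values known. The members and lists were chosen with earlier results of these data known. Tools were Python 3.11.15, numpy 2.4.6, scipy 1.17.1, pandas 2.3.3, matplotlib 3.10.9 and edgeR 4.0.16 (R 4.3.3), the last for TMM scaling only.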

Additional observations from a re-analysis of the deposited data

How the results depend on the processing

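The ratio of the summed ribosomal protein share, 1.116, was recomputed under each alternative. It was 1.110 with at least 1000 UMIs per cell, 1.114 with at most 5% mitochondrial UMIs, 1.109 without the deepest cells, 1.119 with the total taken without mitochondrially encoded genes, 1.129 with the total taken without the members, 1.146 with TMM scaling, 1.103 with thinned cells and 1.127 as the mean over cells. With sets by nuclear RNA share weighted equally it was 1.025, and with sets by mitochondrial share 1.094. It stayed within its counting interval with sets by depth weighted equally and without the relatives. Chosen after seeing the data, the total without Malat1 gave 1.102, leaving out the cells of the 2 sets with the most nuclear RNA gave 1.097, and leaving out the cells with a ribosomal protein share under 3.5% gave 1.108. The median log2 ratio, 0.16, was 0.20 with TMM scaling, 0.037 with equal weights by nuclear RNA share, 0.13 with equal weights by mitochondrial share and 0.14 without the 2 sets with the most nuclear RNA. It lay between 0.14 and 0.18 under the other alternatives. The number of genes at least 1.1-fold higher, 60, was 0 with equal weights by nuclear RNA share and 37 with equal weights by mitochondrial share. It was within 1.5 times of 60 otherwise, and the number at least 1.1-fold lower was 0 under every alternative run. The cause of these moves was not tested. TMM scaling moved the median of all genes by 0.04, the largest shift of any alternative. Among 392 recomputed ratios of 28 named genes, 265 stayed within their counting intervals, and 15 changed sign, 10 of them with equal weights by nuclear RNA share, all in genes under 1.1-fold. No paired analysis was possible because a single library stood for either sort, and for the same reason no replicate could be left out. Depth limits the rarest members: Rpl3l and Rpl10l cannot be compared between the sorts, and the interval of Rpl39l is wide.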

Other observations

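Small nucleolar RNA host genes, several of which share the oligopyrimidine start with ribosomal protein genes while their introns give the RNAs that guide ribosomal RNA modification, were at about the same or a lower level in the plasma-positive library. Of the 15 genes listed 5 were found, 4 reached 10 CPM, and 2 were at least 1.1-fold lower, against 16.5% of all genes at that level. Snhg20 was at 91.0 CPM in the plasma-negative and 76.7 CPM in the plasma-positive library (log2 ratio -0.25, -0.32 to -0.18). Snhg9 was at 33.3 and 24.96 CPM (-0.42, -0.54 to -0.30). Snhg12 was at 62.1 and 59.3 CPM and Snhg6 at 27.4 and 27.5 CPM.

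Ribosomal protein symbols with -ps, which the symbol rule leaves out as pseudogenes, were 9 in number. They held 1420 plasma-negative and 1873 plasma-positive UMIs, 0.00411% and 0.00446% of the totals. Pseudogenes listed under other symbols were not counted, so these sums do not give the whole signal of ribosomal protein pseudogenes. Only 1 of the 9 symbols, Rpl10-ps3, reached 10 CPM, with a log2 ratio of 0.12.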
